A study of Mus musculus with 12 samples.

Results

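The 10 genes described here encode proteins of the basement membrane: the laminin alpha chains Lama1 and Lama5, the beta chains Lamb1 and Lamb2, the gamma chain Lamc1, the nidogens Nid1 and Nid2, the proteoglycans perlecan (Hspg2) and agrin (Agrn), and the collagen-binding glycoprotein Sparc. They were picked by gene symbol, and each was found as 1 locus among 23136 named loci. All 10 were among the 12320 named loci that reached the expression minimum and were tested, 1 FPKM (fragments mapped to a transcript, scaled to its length and to the mapped fragments of the library) in at least 3 of 12 libraries. The basement membrane is a thin sheet of extracellular matrix on which epithelial cells sit and take their polarity. Each laminin is secreted as a trimer of an alpha, a beta and a gamma chain that assembles into a network at the cell surface through integrins and dystroglycan, and nidogens and perlecan join this network to that of collagen IV. In the mouse embryo the epiblast lies on such a sheet around the time of implantation.

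The series holds 12 RNA libraries, 3 for each of 4 kinds of pluripotent cell from C57 Bl/6J mice. Embryonic stem cells (ESC) of wild-type genotype, which resemble the epiblast before implantation, grew on gelatin in serum-free N2B27 medium. LIF, 1 uM of the MEK inhibitor PD0325901 and 3 uM of the GSK3 inhibitor CHIR99021 held them in the naive state. Wild-type epiblast-like cells (EpiLC), which resemble the epiblast after implantation, were made from ESC on fibronectin over 48 h. Their medium held 20 ng/ml of Activin A, 12 ng/ml of the growth factor Fgf2 and 1% of the serum substitute KOSR. The other groups were ESC with Sirt1 knocked out (Sirt1KO) and such knockout cells with Otx2 knocked down in addition (Sirt1KO Otx2KD), both kept like the wild-type ESC. Sirt1 is a deacetylase, and Otx2 a homeodomain factor of the primed state. The series sets the changes of the naive to primed transition beside those after Sirt1 loss and Otx2 knockdown. The labels do not give the part of Sirt1 that was deleted, the way Otx2 was knocked down or the number of clones, and they give no wild-type group with Otx2 knocked down. They also do not say whether replicates came from separate cultures, so the p-values measure the spread between these libraries, which may be technical. The medium and the coating of the plate both differ between EpiLC and the 3 ESC groups, so they cannot be told apart from the change of cell state.

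Depth relative to the first wild-type ESC library, read from the spacing of FPKM values under 0.1, ranged from 0.767 to 1.33, and between 15775 and 16408 named loci had a value above 0. The pluripotency factor Pou5f1 was high in all libraries (592 to 670.1 FPKM). Otx2 lay between 6.85 and 7.68 FPKM in the ESC libraries, 96.3 and 102 in EpiLC, 22.2 and 34.2 in Sirt1KO, and 5.61 and 6.33 in the Sirt1KO Otx2KD group, so it was high in EpiLC and, to a lesser degree, in Sirt1KO. RNA of the Sirt1 locus remained at 15.5 ± 0.196 FPKM in Sirt1KO against 25.8 ± 0.412 in ESC, and whether that RNA holds the deleted part cannot be read from a value per locus. Values below are FPKM of single libraries in the order of their replicate numbers. Fold changes are differences of log2(FPKM + 1) with their standard error from limma, a linear model fitted to all tested loci, with Benjamini-Hochberg adjusted p, and a gene is said to rise or fall where that p was under 0.05.

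The genes lie apart from each other except for Hspg2 and Agrn, which share chromosome 4. In mm9, Lama1 spans chr17:68046604-68171985, Lama5 chr2:179911075-179960564, Lamb1 chr12:31950158-32014504, Lamb2 chr9:108382192-108392861 and Lamc1 chr1:155066051-155179916. Nid1 spans chr13:13529868-13604542, Nid2 chr14:20570478-20643045, Hspg2 chr4:137024717-137126577, Agrn chr4:155539300-155571668 and Sparc chr11:55208002-55233582. These are whole loci, introns included. The files list the interval of Nid2 for a second locus, 2700060E02Rik, at 80.2 to 88.9 FPKM in all 12 libraries, and since the labels do not state whether reads kept their strand, reads of that locus and of Nid2 cannot be told apart where they overlap.

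In ESC the levels, which are scaled to length, spanned from 3.24 FPKM for Lama1 to 517 FPKM for Sparc. Whether other differences between the transcripts shape this order was not tested. Nid2, with the limit of its shared interval given above, followed Sparc with 105 FPKM, and Nid1 (47.5) and Lamc1 (46.6) were close to each other. Agrn came next (33.3), then Lama5 (15.5) and Lamb1 (15.1), Hspg2 (10.4) and Lamb2 (8.92). The gamma chain, which has to serve every trimer, was thus listed above each alpha and each beta chain in ESC.

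**Figure D1:**
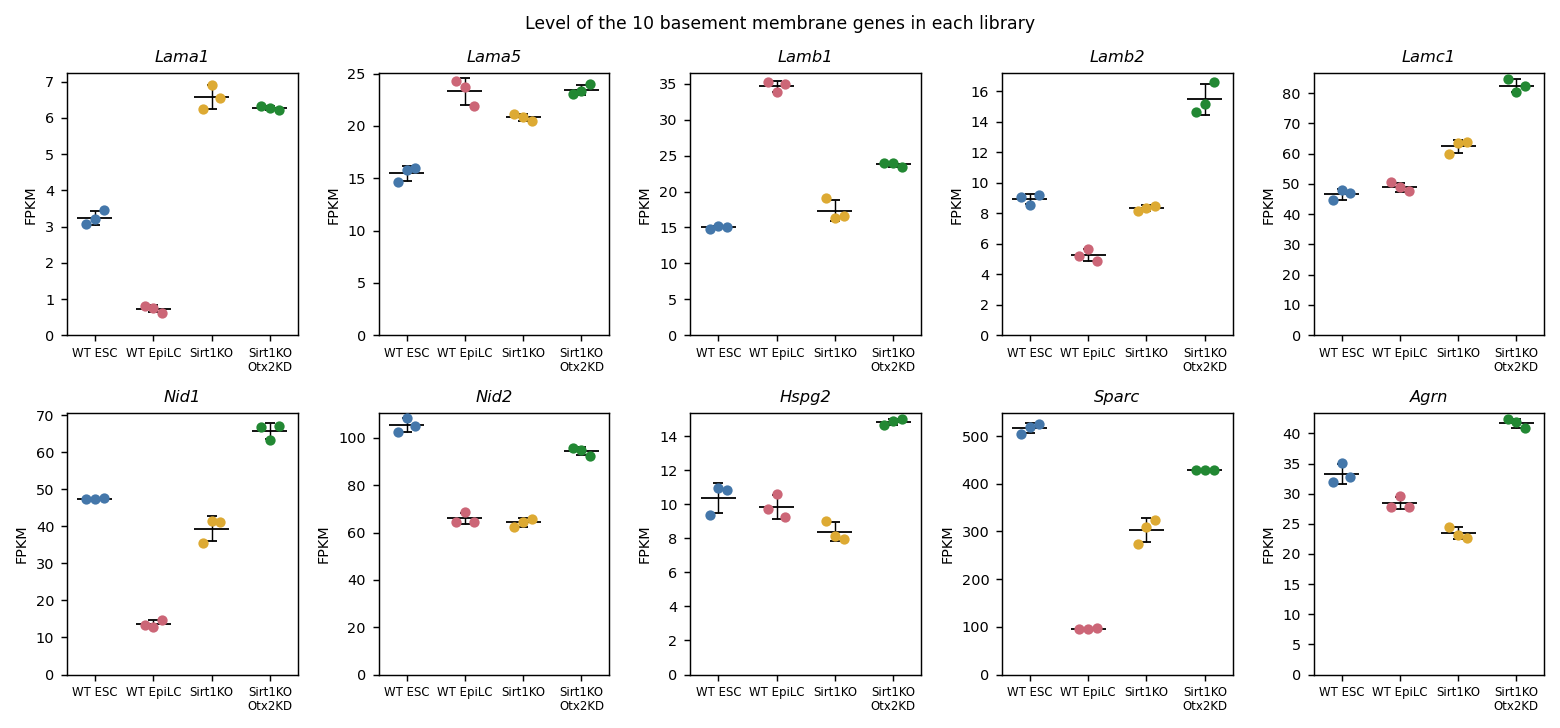
FPKM of the 10 genes (y axis, from 0, a scale for each gene) in the 4 groups (x axis, ESC and EpiLC being wild-type). Points are libraries, long bars group means and whiskers 1 SD (n = 3). Sparc and Nid1 are lowest in EpiLC, Lamb1 is highest there, and Lamb2, Lamc1, Nid1, Hspg2 and Agrn are highest in Sirt1KO Otx2KD.

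The alpha chains, which carry the cell-binding end of the trimer, moved in opposite directions on the way to EpiLC. Lama1, the chain of early embryonic basement membranes, was at 3.07, 3.22 and 3.45 FPKM in ESC, 0.819, 0.756 and 0.621 in EpiLC, 6.25, 6.91 and 6.55 in Sirt1KO and 6.31, 6.27 and 6.22 in the Sirt1KO Otx2KD group. EpiLC libraries lay below all others, and those of both Sirt1KO groups lay above ESC and overlapped each other. Lama1 fell in EpiLC against ESC (-1.29 ± 0.0726, adjusted p = 1.21e-09) and rose in Sirt1KO against ESC (0.84 ± 0.0726, adjusted p = 2.17e-07). Between Sirt1KO Otx2KD and Sirt1KO its difference was -0.06 ± 0.0726 (adjusted p = 0.506). Since Lama1 was under 1 FPKM in EpiLC, its fall depends on the constant added before the logarithm and was -2.01 with 0.1 in place of 1.

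Lama5, the alpha chain of most epithelial basement membranes, was at 14.7, 15.8 and 15.9 FPKM in ESC, 24.3, 23.7 and 21.9 in EpiLC, 21.1, 20.8 and 20.5 in Sirt1KO and 23.0, 23.3 and 24.0 in the Sirt1KO Otx2KD group. ESC libraries were the lowest, those of Sirt1KO lay between, and EpiLC and Sirt1KO Otx2KD overlapped. Lama5 rose in EpiLC (0.56 ± 0.049, adjusted p = 1.33e-07) and in Sirt1KO (0.41 ± 0.049, adjusted p = 5.72e-06), both against ESC, and rose by a small step from Sirt1KO to Sirt1KO Otx2KD (0.16 ± 0.049, adjusted p = 0.0105). The difference between EpiLC and Sirt1KO Otx2KD was -0.01 ± 0.049 (adjusted p = 0.873). Of the summed FPKM of Lama1 and Lama5, the share of Lama5 was 82.7% ± 0.415 in ESC, 97.0% ± 0.254 in EpiLC, 76.0% ± 1.08 in Sirt1KO and 78.9% ± 0.472 in the Sirt1KO Otx2KD group (SD, n = 3), with no overlap between groups.

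The beta chains also parted in EpiLC. Lamb1, the widespread beta chain, was at 14.9, 15.3 and 15.1 FPKM in ESC, 35.2, 33.8 and 35.0 in EpiLC, 19.0, 16.4 and 16.6 in Sirt1KO and 24.0, 24.0 and 23.4 in the Sirt1KO Otx2KD group. Its groups did not overlap, in the order ESC, Sirt1KO, Sirt1KO Otx2KD, EpiLC. Lamb1 rose in EpiLC against ESC by 1.15 ± 0.0525 (adjusted p = 1.37e-10), the largest rise among the 10 genes in the 3 comparisons of the design. It rose by 0.19 ± 0.0525 in Sirt1KO against ESC (adjusted p = 0.00611), which dropped to 0.12 without Sirt1KO replicate 1, and by 0.44 ± 0.0525 from Sirt1KO to Sirt1KO Otx2KD (adjusted p = 6.98e-06).

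Lamb2, the beta chain best known from the neuromuscular junction and the kidney filter, was at 9.02, 8.54 and 9.20 FPKM in ESC, 5.22, 5.65 and 4.85 in EpiLC, 8.11, 8.34 and 8.50 in Sirt1KO and 14.6, 15.1 and 16.6 in the Sirt1KO Otx2KD group. EpiLC libraries were the lowest and those of Sirt1KO Otx2KD the highest. Lamb2 fell in EpiLC against ESC (-0.67 ± 0.0643, adjusted p = 3.52e-07) and rose from Sirt1KO to Sirt1KO Otx2KD (0.82 ± 0.0643, adjusted p = 1.13e-07). Its difference between Sirt1KO and ESC was -0.09 ± 0.0643 (adjusted p = 0.235). Of the sum of both beta chains, Lamb2 made up 37.2% ± 1.13 in ESC, 13.1% ± 1.09 in EpiLC, 32.5% ± 2.26 in Sirt1KO and 39.3% ± 1.91 in the Sirt1KO Otx2KD group (SD, n = 3). EpiLC stood far below the rest, while ESC and Sirt1KO Otx2KD overlapped.

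Lamc1, the gamma chain of most laminins, was at 44.6, 48.1 and 47.2 FPKM in ESC, 50.5, 48.8 and 47.5 in EpiLC, 59.9, 63.4 and 63.8 in Sirt1KO and 84.6, 80.5 and 82.3 in the Sirt1KO Otx2KD group. ESC and EpiLC overlapped, and both Sirt1KO groups lay above them without overlap. The difference between EpiLC and ESC was 0.07 ± 0.0411 (adjusted p = 0.145), though under quantile normalization it was 0.15 and passed the test (adjusted p = 0.00206). Lamc1 rose in Sirt1KO against ESC (0.41 ± 0.0411, adjusted p = 8.4e-07) and again from Sirt1KO to Sirt1KO Otx2KD (0.40 ± 0.0411, adjusted p = 1.67e-06). Against ESC it stood 0.81 ± 0.0411 higher in Sirt1KO Otx2KD (adjusted p = 2.97e-09).

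The balance between the chains of a trimer differed between groups. The sum of Lama1 and Lama5 came to 0.401 ± 0.00910 of Lamc1 in ESC, 0.490 ± 0.0148 in EpiLC, 0.439 ± 0.0168 in Sirt1KO and 0.360 ± 0.0117 in the Sirt1KO Otx2KD group (SD, n = 3), the groups not overlapping. The sum of Lamb1 and Lamb2 was 0.515 ± 0.0204, 0.816 ± 0.0197, 0.412 ± 0.0354 and 0.476 ± 0.0166 of Lamc1 in the same order. EpiLC thus had the most alpha and beta chain RNA per gamma chain RNA. These shares were described over 3 libraries a group and not tested.

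**Figure D2:**
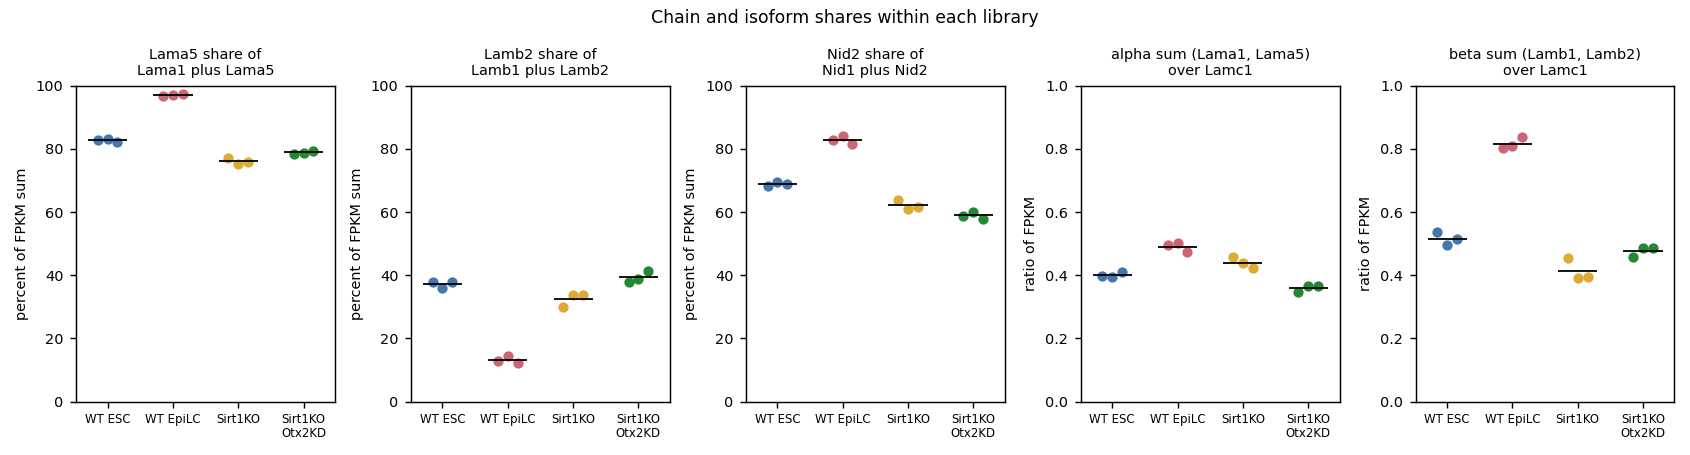
Share of Lama5 among both alpha chains, of Lamb2 among both beta chains and of Nid2 among both nidogens (percent of summed FPKM, y axis 0 to 100), and the alpha and beta sums over Lamc1 (ratio of FPKM, y axis 0 to 1), by group (x axis). Points are libraries and bars means (n = 3); EpiLC stand apart in all 5 panels, with a Lamb2 share of 13.1% against 32.5% to 39.3% elsewhere.

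Other laminin chains were low. Lama3, an alpha chain of the skin and other epithelia, had means of 2.93, 1.10, 1.88 and 2.04 FPKM in ESC, EpiLC, Sirt1KO and Sirt1KO Otx2KD, and Lamb3, which was not tested, had 0.171, 0.176, 0.637 and 0.138. Lama4, a chain of vessels and mesenchyme, had means of 1.17, 0.881, 0.220 and 1.96 FPKM in the same order, and Lama2 and Lamc3 stayed under 0.5 FPKM in every library.

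The nidogens bind the laminin gamma chain and bridge to collagen IV. Nid1 was at 47.4, 47.5 and 47.6 FPKM in ESC, 13.5, 12.9 and 14.7 in EpiLC, 35.4, 41.3 and 41.2 in Sirt1KO and 66.9, 63.3 and 67.2 in the Sirt1KO Otx2KD group. The groups did not overlap, and EpiLC lay far below the others. Nid1 fell in EpiLC against ESC by 1.72 on the log2 scale (SE 0.06, adjusted p = 9.33e-12), to a mean 3.46 times lower. It fell in Sirt1KO against ESC (-0.27 ± 0.06, adjusted p = 0.00125) and rose from Sirt1KO to Sirt1KO Otx2KD (0.73 ± 0.06, adjusted p = 1.69e-07), where it passed the ESC level (0.46 ± 0.06, adjusted p = 2.01e-05).

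Nid2 was at 102, 108 and 105 FPKM in ESC, 64.6, 68.5 and 64.6 in EpiLC, 62.3, 64.6 and 65.8 in Sirt1KO and 95.7, 95.0 and 92.5 in the Sirt1KO Otx2KD group. ESC libraries were the highest, Sirt1KO Otx2KD came just below them, and EpiLC and Sirt1KO overlapped at the low end. Nid2 fell in EpiLC (-0.67 ± 0.0368, adjusted p = 9.8e-10) and in Sirt1KO (-0.70 ± 0.0368, adjusted p = 1.24e-09), both against ESC, and rose from Sirt1KO to Sirt1KO Otx2KD (0.55 ± 0.0368, adjusted p = 2.32e-08). The difference between EpiLC and Sirt1KO was 0.04 ± 0.0368 (adjusted p = 0.393), and under quantile normalization it was 0.11 and passed the test (adjusted p = 0.0162). Of the sum of both nidogens, Nid2 held 68.9% ± 0.601 in ESC, 82.8% ± 1.36 in EpiLC, 62.1% ± 1.49 in Sirt1KO and 58.9% ± 1.04 in the Sirt1KO Otx2KD group (SD, n = 3).

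Perlecan and agrin are large heparan sulfate proteoglycans that bind laminin and, at the cell surface, dystroglycan. Hspg2 was at 9.37, 10.96 and 10.8 FPKM in ESC, 9.72, 10.6 and 9.24 in EpiLC, 9.01, 8.13 and 7.99 in Sirt1KO and 14.7, 14.9 and 14.995 in the Sirt1KO Otx2KD group. ESC and EpiLC overlapped, and Sirt1KO Otx2KD stood above all other libraries. The difference between EpiLC and ESC was -0.07 ± 0.0695 (adjusted p = 0.389). Hspg2 fell in Sirt1KO against ESC (-0.28 ± 0.0695, adjusted p = 0.00292) and rose from there to Sirt1KO Otx2KD (0.76 ± 0.0695, adjusted p = 5.05e-07).

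Agrn was at 31.9, 35.1 and 32.8 FPKM in ESC, 27.9, 29.6 and 27.8 in EpiLC, 24.5, 23.2 and 22.7 in Sirt1KO and 42.3, 41.9 and 40.9 in the Sirt1KO Otx2KD group. The groups did not overlap, in the order Sirt1KO, EpiLC, ESC, Sirt1KO Otx2KD. Agrn fell in EpiLC against ESC (-0.22 ± 0.0465, adjusted p = 0.000676) and more so in Sirt1KO (-0.49 ± 0.0465, adjusted p = 5.73e-07), and rose from Sirt1KO to Sirt1KO Otx2KD (0.80 ± 0.0465, adjusted p = 5.71e-09). The fall in EpiLC was the smaller one by a direct test of the 2 groups (0.27 ± 0.0465, adjusted p = 0.000171). The receptor Dag1 (dystroglycan), which both proteoglycans bind, had means of 38.8, 36.3, 26.3 and 36.0 FPKM in ESC, EpiLC, Sirt1KO and Sirt1KO Otx2KD. It fell in Sirt1KO against ESC (-0.54 ± 0.0462, adjusted p = 1.71e-07) and rose from there to Sirt1KO Otx2KD (0.44 ± 0.0462, adjusted p = 2.02e-06). Dag1 was named after its values were seen, and the 24 tested receptors do not share its pattern. In Sirt1KO against ESC 10 of them rose and 7 fell (65.0% of all tested loci called). From Sirt1KO to Sirt1KO Otx2KD 8 rose and 8 fell (62.6% of all tested loci called).

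Sparc, which binds collagen IV and calcium and acts on matrix assembly, was at 505, 519.6 and 526 FPKM in ESC, 94.4, 94.8 and 96.7 in EpiLC, 275, 309 and 323 in Sirt1KO and 429.8, 428 and 429 in the Sirt1KO Otx2KD group. The groups did not overlap, with ESC highest and EpiLC lowest. Sparc fell in EpiLC against ESC by 2.43 on the log2 scale (SE 0.0455, adjusted p = 3.38e-14), to a mean 5.42 times lower, the largest change of the 10 genes in that comparison. It fell in Sirt1KO against ESC (-0.78 ± 0.0455, adjusted p = 4.01e-09), rose from Sirt1KO to Sirt1KO Otx2KD (0.51 ± 0.0455, adjusted p = 4.17e-07) and there stayed below ESC (-0.27 ± 0.0455, adjusted p = 0.000219). The 1039 tested loci of its chromosome, 11, had a median of -0.46 in EpiLC, -0.49 in Sirt1KO and -0.39 in the Sirt1KO Otx2KD group, each against wild-type ESC, and of 0.07 between the Sirt1KO groups. With chromosome medians removed, the changes of Sparc were -1.95 in EpiLC and -0.29 in Sirt1KO, and that of Sirt1KO Otx2KD turned to 0.14 (adjusted p = 0.0209). The part of this shift of the whole chromosome in the changes of Sparc was not tested further.

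**Figure D3:**
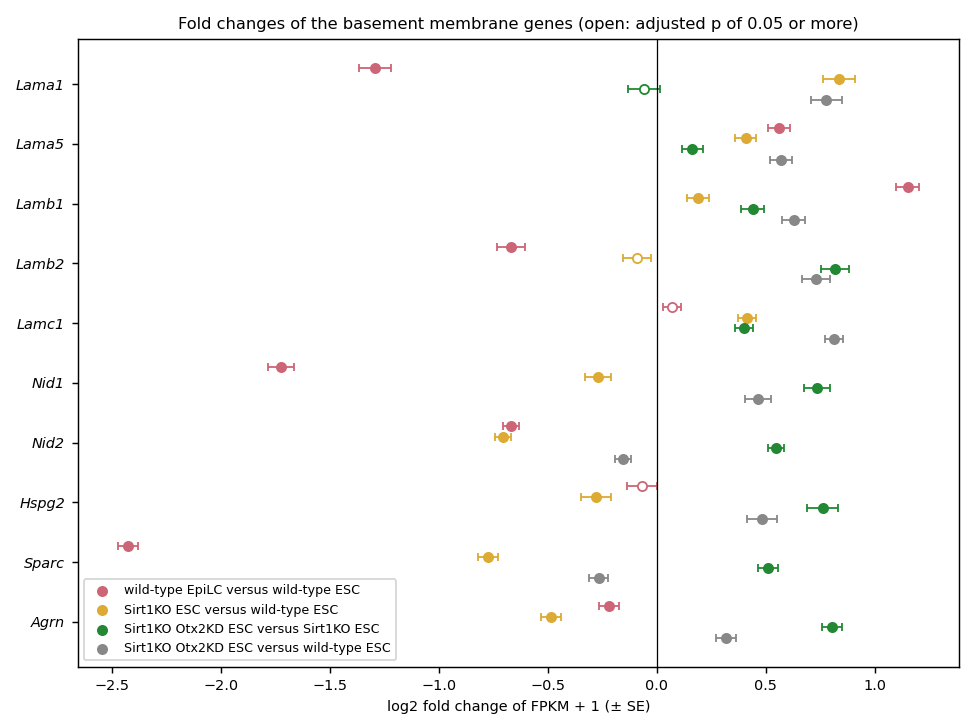
Log2 fold change of FPKM + 1 with its SE (x axis) for each of the 10 genes (y axis) in 4 comparisons, by colour. Filled points have an adjusted p under 0.05 and open ones do not; in green, Sirt1KO Otx2KD against Sirt1KO, 9 genes lie between 0.16 and 0.82 and Lama1 at -0.06.

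The first comparison asks how the genes change from the naive to the primed state. In EpiLC against ESC, Lamb1 and Lama5 rose, Sparc, Nid1, Lama1, Lamb2, Nid2 and Agrn fell, and Lamc1 and Hspg2 did not pass the test. With 8 of 10 genes called, 2 higher and 6 lower, the share was close to that of all tested loci, of which 74.6% were called (35.8% higher and 38.8% lower). The libraries of both groups did not overlap for 8 of the genes, as was so for 76.8% of all tested loci. The median change of the 10 genes was -0.44, beside -0.02 over all tested loci, and -0.22 under a filter of a mean of 5 FPKM, which drops Lama1. The other components of the basement membrane split in the same comparison, with 5 of 13 tested genes higher and 8 lower. The filter sets that split: it was 1 and 5 under the stricter filter, and 8 genes were higher with no filter, where the list median moved from -0.65 to 0.03. Col4a1 and Col4a2, the chains of the common collagen IV, rose from 3.30 to 7.06 FPKM (0.92 ± 0.092, adjusted p = 5.73e-07) and from 1.85 to 3.26 FPKM (0.58 ± 0.104, adjusted p = 0.000158), and both lie on chromosome 8, whose 680 tested loci had a median of 0.40. Col18a1, the collagen that yields endostatin, rose from 19.5 to 71.7 FPKM (1.83 ± 0.0762, adjusted p = 6.06e-11). The calcium-binding matrix protein Smoc1 fell from 18.4 to 5.11 FPKM (-1.67 ± 0.0521, adjusted p = 3.24e-12), and fibronectin, Fn1, fell from 220.3 to 128 FPKM (-0.77 ± 0.0433, adjusted p = 1.14e-09).

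Among receptors of laminin and the basement membrane, 14 of 24 tested genes rose in EpiLC, 3 fell and 7 did not pass the test. The share called was close to that of all tested loci, of which 74.6% were called (35.8% higher and 38.8% lower). The same share stands beside the other counts of this paragraph. Itga6 and Itgb1, whose products pair as a laminin-binding integrin, rose from 21.3 to 50.6 FPKM (1.21 ± 0.0362, adjusted p = 2.23e-12) and from 47.9 to 98.6 FPKM (1.02 ± 0.0393, adjusted p = 2.52e-11), and Itgb1, also on chromosome 8, was at 0.63 with chromosome medians removed. The cell-surface proteoglycan Gpc4 rose from 3.91 to 13.4 FPKM (1.56 ± 0.0662, adjusted p = 6.91e-11). Of 20 tested genes for folding, crosslinking and secretion of collagen and laminin, 3 rose (6 under quantile normalization and 5 under median-of-ratios scaling) and 11 fell, among them the lysyl oxidase Lox, from 26.2 to 3.22 FPKM (-2.69 ± 0.0857, adjusted p = 3.92e-12), and P4hb, a subunit of collagen prolyl hydroxylase, from 350.1 to 193 FPKM (-0.86 ± 0.0314, adjusted p = 1.55e-11). P4hb lies on chromosome 11 with Sparc, and its change was -0.38 with chromosome medians removed. Of 16 tested matrix proteases and inhibitors, 6 rose and 9 fell. The gelatinase Mmp2, which cleaves collagen IV, rose from 2.08 to 10.7 FPKM (1.93 ± 0.1095, adjusted p = 1.34e-09). Mmp2 too lies on chromosome 8, whose tested loci had a median of 0.40 in this comparison. The serine protease Htra1 fell from 18.7 to 4.70 FPKM (-1.79 ± 0.0764, adjusted p = 7.14e-11).

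**Figure D4:**
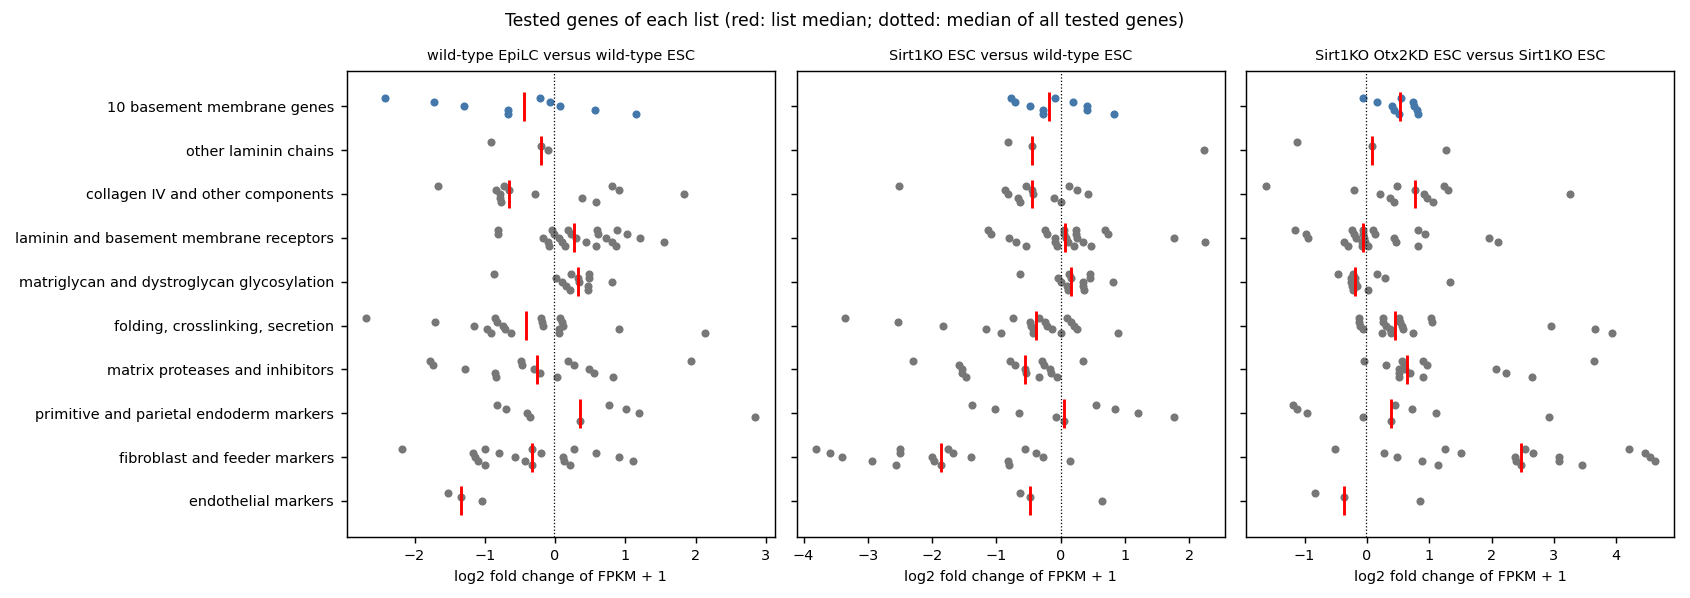
Log2 fold change of FPKM + 1 (x axis) of every tested gene of the 10 and of 9 gene lists (rows) in the 3 comparisons of the design (panels). Points are genes, red bars list medians and the dotted line the median of all tested loci; the fibroblast and feeder row lies far to the left in Sirt1KO (median -1.86) and far to the right after Otx2 knockdown (median 2.48).

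The second comparison asks what the loss of Sirt1 does in naive medium. In Sirt1KO against ESC, 4 laminin chains rose (Lama1, Lama5, Lamb1 and Lamc1), while both nidogens, both proteoglycans and Sparc fell, and Lamb2 did not pass the test. The share of 9 called genes in 10 stands beside 65.0% of all tested loci called (32.4% higher and 32.7% lower). For all 10 genes the libraries did not overlap, beside 68.5% of all tested loci. The median of the 10 genes was -0.18, beside 0.01 over all tested loci, and -0.27 under the stricter filter that drops Lama1. Of the 13 tested other components, 2 rose and 8 fell. The 8 became 4 under the stricter filter, and with no filter the list median moved from -0.45 to -0.04. Fbln2, a fibulin that binds laminin and nidogen, was at 25.4, 25.4 and 28.3 FPKM in ESC and 3.72, 3.72 and 3.88 in Sirt1KO (-2.52 ± 0.0532, adjusted p = 2.88e-13). Col4a1 and Col4a2 fell to 1.95 and 0.845 FPKM (-0.54 ± 0.092 and -0.63 ± 0.104, adjusted p = 0.000154 and 0.000113), although the median of their chromosome was 0.46. Ntn1, a netrin with laminin-like domains, and Col18a1 were the exceptions, rising from 7.10 to 9.87 FPKM (0.43 ± 0.0723, adjusted p = 0.000142) and from 19.5 to 23.6 FPKM (0.26 ± 0.0762, adjusted p = 0.00885). Ntn1, on chromosome 11, was at 0.91 with chromosome medians removed. Col4a5 was at 0.882 FPKM in ESC and 0.0620 in Sirt1KO, and Col4a3, Col4a4 and Col4a6 stayed under 0.1 FPKM in every library.

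Among the receptors, 10 of 24 tested genes rose in Sirt1KO, 7 fell and 7 did not pass the test. The share called was close to that of all tested loci, of which 65.0% were called (32.4% higher and 32.7% lower). That share also stands beside the other counts of this paragraph. Bcam, a laminin alpha5 receptor of the immunoglobulin family, rose from 12.0, 11.5 and 13.1 FPKM in ESC to 60.3, 61.7 and 63.0 in Sirt1KO (2.25 ± 0.053, adjusted p = 6.51e-13), and was at 25.7, 27.9 and 27.9 in Sirt1KO Otx2KD. The proteoglycans Gpc4 and Sdc4 rose from 3.91 to 15.6 FPKM (1.76 ± 0.0662, adjusted p = 5.14e-11) and from 79.0 to 132 FPKM (0.73 ± 0.029, adjusted p = 8.59e-11). Of the 20 folding and crosslinking genes 4 rose and 13 fell. The 4 became 2 without wild-type ESC replicate 2, with the replicate block, with only both groups fitted, with chromosome medians removed and with no filter. Among the falls were those of Lox, to 1.65 FPKM (-3.36 ± 0.0857, adjusted p = 1.6e-12) and Loxl2, from 9.65 to 0.846 FPKM (-2.53 ± 0.0812, adjusted p = 1.19e-11). Of the 16 proteases and inhibitors 12 fell and 1 rose. The inhibitor Timp2 fell from 11.6 to 1.56 FPKM (-2.29 ± 0.0912, adjusted p = 8.97e-11), and Mmp2 was the exception with 0.35 ± 0.1095 (adjusted p = 0.0122), which was not called when the first ESC library (0.27, adjusted p = 0.0593) or the first Sirt1KO library (0.29, adjusted p = 0.0523) was left out and turned to -0.11 with chromosome medians removed.

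Markers of fibroblasts and feeder cells were also looked at in this comparison. Of 19 tested markers, 18 fell in Sirt1KO against ESC and 0 rose by limma (1 without Sirt1KO replicate 3), with a median of -1.86. Of all tested loci 65.0% were called there (32.4% higher and 32.7% lower). Col3a1, a collagen of connective tissue, was at 33.6, 36.2 and 39.3 FPKM in ESC and 2.08, 2.02 and 2.20 in Sirt1KO. Summed without Vim, which pluripotent cells express, the 19 remaining listed markers came to 170.5 to 198 FPKM in ESC, 107 to 117 in EpiLC, 26.2 to 36.8 in Sirt1KO and 324 to 332 in the Sirt1KO Otx2KD group. With Vim the sums were 336 to 376, 238 to 257, 126 to 131 and 387 to 406 FPKM. Fap, a defining marker of activated fibroblasts, was listed at 0 in Sirt1KO and stayed under 0.2 FPKM in every other library. The part of these markers in the results on the basement membrane genes was not tested, and in these bulk libraries fewer cells of a type and less RNA per cell cannot be told apart. Whether the rise of the 4 laminin chains or the fall of the nidogens, proteoglycans and Sparc is tied to these markers was not tested.

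**Figure D5:**
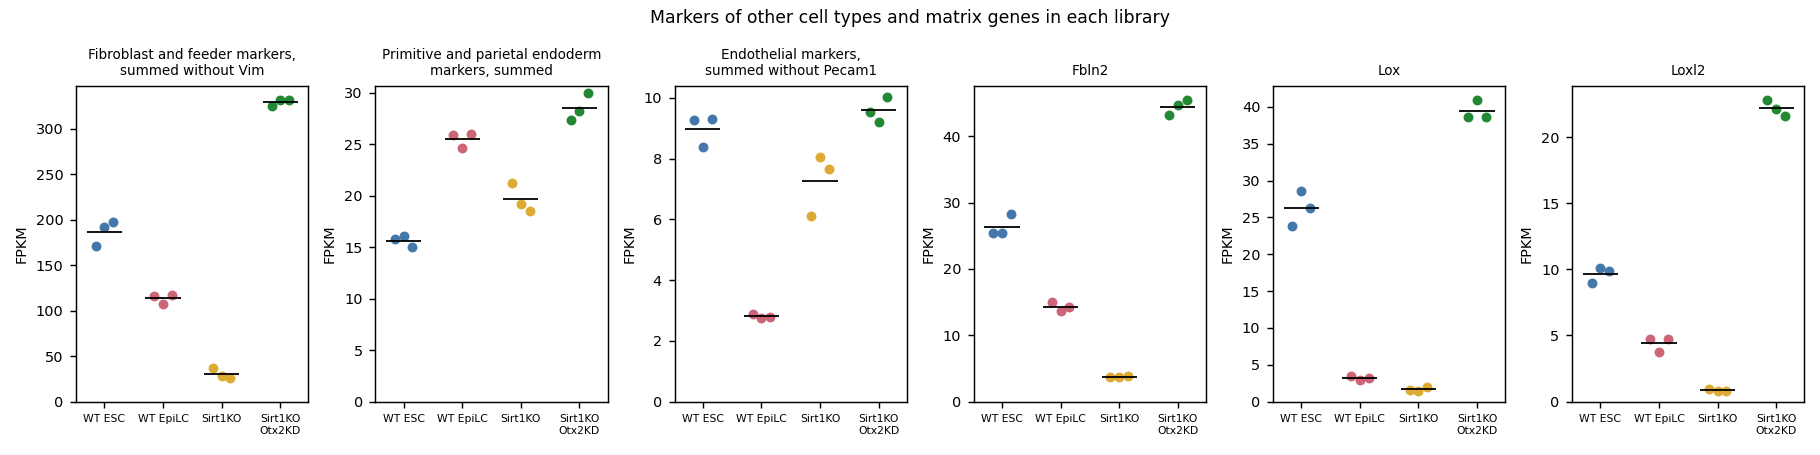
Summed FPKM of markers of other cell types and FPKM of the matrix genes Fbln2, Lox and Loxl2 (y axis, from 0, a scale for each panel) by group (x axis). Points are libraries and bars means (n = 3); the fibroblast and feeder sum without Vim lies at 26.2 to 36.8 in Sirt1KO and 324 to 332 in the Sirt1KO Otx2KD group.

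Markers of 2 other cell types were summed as well. The 20 listed markers of primitive and parietal endoderm, an early lineage that makes much laminin, summed to 15.03 to 16.05 FPKM in ESC, 24.7 to 25.99 in EpiLC, 18.5 to 21.3 in Sirt1KO and 27.4 to 29.96 in the Sirt1KO Otx2KD group. Of these 20 markers, Ttr was listed at 0 in all libraries of ESC, EpiLC and Sirt1KO, and Afp in those of both Sirt1KO groups. Srgn made up 15.4 FPKM of the last sum, rising from 1.20 FPKM in Sirt1KO (2.92 ± 0.1597, adjusted p = 6.43e-09), and Lrp2 made up 9.32 FPKM of the sum in EpiLC. The sums do not show a general rise. From Sirt1KO to Sirt1KO Otx2KD 5 of 9 tested markers rose and 3 fell, beside 62.6% of all tested loci called. Fst fell there from 7.14 to 2.59 FPKM (-1.19 ± 0.1114, adjusted p = 6.29e-07). In EpiLC against ESC 5 of the 9 rose and 3 fell as well, beside 74.6% of all tested loci called. The 8 listed endothelial markers summed to 62.7 to 67.7, 21.0 to 23.3, 43.1 to 51.1 and 39.0 to 41.9 FPKM in ESC, EpiLC, Sirt1KO and Sirt1KO Otx2KD, most of it Pecam1, which naive ESC express. Without Pecam1 they were 8.38 to 9.29, 2.74 to 2.89, 6.09 to 8.04 and 9.19 to 10.03 FPKM, and Emcn was listed at 0 in all 12 libraries. Their part in the results was not tested.

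The third comparison asks what knockdown of Otx2 does in cells that lack Sirt1. From Sirt1KO to Sirt1KO Otx2KD 9 of the 10 genes rose and 0 fell by limma, where 62.6% of all tested loci were called (31.1% higher and 31.5% lower). Lama1, the gene that was not called, had an unadjusted p of 0.438. The rises ran from 0.16 for Lama5 to 0.82 for Lamb2, with Agrn, Hspg2 and Nid1 close to the latter, and the median of the 10 genes was 0.53, beside -0.01 over all tested loci. The libraries of the 9 genes that rose did not overlap between the groups, as was so for 67.2% of all tested loci. The counts of 9 and 0 held in each of the 15 alternatives of processing and of libraries left out.

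The genes that work with them moved in the same comparison. Of the 13 tested other components, 11 rose and 1 fell. Fbln2 was at 43.3, 44.7 and 45.5 FPKM in Sirt1KO Otx2KD (3.25 ± 0.0532 against Sirt1KO, adjusted p = 3.45e-14), above its ESC level, and Smoc1 rose from 9.70 to 21.4 FPKM (1.06 ± 0.0521, adjusted p = 1.14e-09). Col4a1 and Col4a2 rose to 4.74 and 2.48 FPKM (0.96 ± 0.092 and 0.92 ± 0.104, adjusted p = 8.11e-07 and 4.15e-06). Ntn1 was the exception, falling from 9.87 to 2.54 FPKM (-1.62 ± 0.0723, adjusted p = 4.7e-10).

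The receptors gave no such one-sided count, with 8 of 24 tested genes higher and 8 lower. The share called was close to that of all tested loci, of which 62.6% were called (31.1% higher and 31.5% lower). That share stands beside the other counts of this paragraph too. Itga7, the alpha subunit of a laminin-binding integrin of muscle, rose from 0.213 to 4.23 FPKM (2.11 ± 0.098, adjusted p = 7.05e-10), and Tln1, the talin that links integrins to actin, rose from 15.1 to 27.4 FPKM (0.82 ± 0.0437, adjusted p = 2.5e-09). Bcam fell to 27.2 FPKM (-1.15 ± 0.053, adjusted p = 6.18e-10). Of the 20 folding and crosslinking genes, 15 rose and 3 fell. The 3 became 0 without Sirt1KO replicate 2 and 1 with unnamed loci included. Among the rises were those of Lox, at 39.4 FPKM (3.93 ± 0.0857, adjusted p = 4.29e-13), Loxl2 at 22.2 FPKM (3.65 ± 0.0812, adjusted p = 5.12e-13) and Loxl1 at 9.77 FPKM (2.95 ± 0.0968, adjusted p = 2.57e-11). Of the 16 proteases and inhibitors 15 rose and 0 fell by limma, among them Timp2, Htra1 and Timp3, whose products restrain or carry out matrix cleavage. The 15 became 7 under the stricter filter, which tests fewer genes.

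The fibroblast and feeder markers rose in this comparison as well, 17 of 19 tested, with 1 lower and a median of 2.48. Of all tested loci 62.6% were called, and the 17 became 11 under the stricter filter, which tests fewer genes. Col3a1 reached 74.4, 75.4 and 75.9 FPKM, Col1a2 rose from 1.19 to 47.2 FPKM (4.46 ± 0.0782, adjusted p = 6.5e-14) and Postn from 0.313 to 29.4 FPKM (4.53 ± 0.0937, adjusted p = 2.93e-13). Vim went the other way, from 97.8 to 68.6 FPKM (-0.51 ± 0.0646, adjusted p = 1.52e-05). The part of these markers in the rise of the basement membrane genes was not tested. This comparison and the one of Sirt1KO with ESC share the 3 Sirt1KO libraries, so a low value there counts toward a fall in one and a rise in the other.

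Set against wild-type ESC, Sirt1KO Otx2KD cells held more RNA of 8 of the 10 genes and less of Nid2 and Sparc, where 53.9% of all tested loci were called (27.1% higher and 26.8% lower). For all 10 genes the libraries did not overlap, beside 61.3% of all tested loci. The median of the 10 genes was 0.53, beside 0.00 over all tested loci. Lamc1, Lama1 (0.78 ± 0.0726, adjusted p = 8.94e-07) and Lamb2 (0.73 ± 0.0643, adjusted p = 5.21e-07) lay furthest above ESC. Their order depends on the constant added before the logarithm, since by mean FPKM Lama1 was 1.93 times, Lamc1 1.77 times and Lamb2 1.73 times the ESC level. Nid2 lay below ESC (-0.16 ± 0.0368, adjusted p = 0.00258). Sparc is the gene whose direction turned with chromosome medians removed, as given above. The fibroblast and feeder markers were higher in 15 of 19 tested genes and lower in 2, and their part was not tested.

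EpiLC were also set against each Sirt1KO group, with the medium and coating again differing. Against Sirt1KO, 4 of the 10 genes were higher in EpiLC (Lamb1, Agrn, Hspg2 and Lama5), 5 were lower (Lama1, Sparc, Nid1, Lamb2 and Lamc1), and Nid2 did not pass the test. Of all tested loci 69.1% were called there (34.0% higher and 35.1% lower), and the libraries of 9 genes and of 72.4% of all loci did not overlap. Lama1 gave the widest gap, with a fold change of -2.13 ± 0.0726 (adjusted p = 1.51e-11), since it had fallen in one group and risen in the other against ESC. The rises of Lama5 and Hspg2 were lost without single libraries. Against Sirt1KO Otx2KD, Lamb1 was higher in EpiLC (0.52 ± 0.0525, adjusted p = 5.57e-07), 8 genes were lower and Lama5 did not pass the test. Of all tested loci 74.3% were called (36.0% higher and 38.2% lower), and the libraries of 9 genes and of 77.2% of all loci did not overlap. Nid1 (-2.18 ± 0.06, adjusted p = 7.89e-13), Sparc (-2.16 ± 0.0455, adjusted p = 9.25e-14) and Lama1 (-2.07 ± 0.0726, adjusted p = 8.39e-12) lay furthest below.

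Lamb2, Nid1, Hspg2 and Agrn had in common that Sirt1KO Otx2KD was their highest group and that Sirt1KO was not above ESC, so the sequences before their starts are shown, with the motifs searched in capitals. RefSeq promoter windows of GRCm38.p6, of 250 bases before to 50 after a start, were at hand for 7 of the 10 genes (all but Lama1, Lamc1 and Nid2). The stretches run 5′ to 3′ on the strand of the gene and end where an annotated exon begins. That of Lamb2, of 78 bases, also begins right after an annotated exon, so it lies between exons. They lie at chr9:108479779-108479856 (plus strand, Lamb2), chr13:13437391-13437550 (plus strand, Nid1), chr4:137468609-137468768 (plus strand, Hspg2) and chr4:156197489-156197648 (minus strand, Agrn).
Lamb2: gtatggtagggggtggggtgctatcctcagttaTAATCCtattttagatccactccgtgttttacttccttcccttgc
Nid1: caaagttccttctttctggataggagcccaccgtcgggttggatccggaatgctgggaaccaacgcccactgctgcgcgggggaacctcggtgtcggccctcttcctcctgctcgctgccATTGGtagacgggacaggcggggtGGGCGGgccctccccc
Hspg2: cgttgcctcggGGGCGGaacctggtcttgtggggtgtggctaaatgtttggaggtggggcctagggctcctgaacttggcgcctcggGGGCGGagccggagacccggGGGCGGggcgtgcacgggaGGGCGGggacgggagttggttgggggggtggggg
Agrn: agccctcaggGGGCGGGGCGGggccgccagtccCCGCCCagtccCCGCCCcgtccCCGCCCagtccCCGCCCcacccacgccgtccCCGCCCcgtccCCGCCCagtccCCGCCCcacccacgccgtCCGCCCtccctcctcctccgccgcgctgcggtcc
Capitals mark matches on either strand to the motifs searched. These were the GC box, spelled GGGCGG, the TATA box, spelled TATAAA, and the CCAAT box by its own letters. The others were TAATCC, which homeodomain factors of the bicoid class such as Otx2 bind, AGATAA for factors of the GATA family, and ACAAAG for those of the SOX and TCF families. Matches of one motif that overlap were each counted.

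The 4 stretches look unlike each other. The Agrn stretch holds 10 GC boxes and that of Hspg2 4, that of Nid1 holds 1 GC box and a CCAAT box on the opposite strand, and that of Lamb2 holds a TAATCC and no GC box. Over the whole windows, GC boxes numbered 12 in Agrn, 5 in Hspg2, 4 in Lama5, 2 in Lamb1, 1 in Nid1 and 0 in Lamb2 and Sparc, and 35.7% of the 32851 windows of the table hold at least 1. TAATCC was found in 7.06% of all windows, and among the 10 genes in that of Lamb2 and in a second, downstream window of Agrn. GC content ranged from 44.0% in Lamb2 and 55.3% in Sparc to 72.7% in Lama5 and 83.3% in the first window of Agrn. A TATA box, in 13.6% of all windows, was in none of those of the 7 genes. A match of letters is a description and shows no binding.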

How the data were processed

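The authors deposited 1 table of FPKM per locus for each of the 12 libraries. Libraries were TruSeq, from Trizol RNA purified on oligo-dT, per the labels' protocols. Per the submitters' processing notes, TopHat, Cufflinks and Cuffdiff were used with mm9, and their versions and the way library sizes were set are not given in the sources used here. The deposited FPKM carry no counts, so no count test was run and depth is known only as a ratio between libraries, from the step of loci under 0.1 FPKM. Groups follow the sample titles.

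Named loci with at least 1 FPKM in at least 3 of 12 libraries (12320) were tested on log2(FPKM + 1) with limma 3.58.1 in R 4.3.3 (1 mean for each group, a robust empirical Bayes fit with a trend, and 8 degrees of freedom left), called at a Benjamini-Hochberg adjusted p under 0.05 and checked on simulated data. A constant of 1 understates the fold change of low genes. The 10 genes and the 9 gene lists were chosen with earlier results of these data known. Named were all 10 genes, Sirt1 and Otx2, from each list up to 3 called genes per comparison with the largest t and up to 2 that went against their list, other laminin chains (1 result of the rule is not reported here) and all collagen IV chains, and the 3 loci most like Lama1, Lamb1, Lamc1 and Sparc; Pou5f1 and Dag1 were named after their values were seen. Listed genes without a locus of their own were not counted. Alternatives were a constant of 0.1, no filter, a mean of at least 5 FPKM, quantile normalization, median-of-ratios scaling, chromosome medians removed, unnamed loci included, only the 2 groups compared, a replicate block, and each library left out. Promoter sequences are RefSeq windows of GRCm38.p6, trimmed where GENCODE lists an exon.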

Additional observations from a re-analysis of the deposited data

How the results depend on the processing

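Of the 60 fold changes of single basement membrane genes, 54 kept their direction and side of the threshold under every alternative run. With chromosome medians removed, the number of these genes lower in Sirt1KO Otx2KD than in ESC was 1 in place of 2, because Sparc turned from -0.27 to 0.14. The difference of Nid2 between EpiLC and Sirt1KO (0.04) turned to -0.01 under that setting (-0.0139). The difference of Lama5 between EpiLC and Sirt1KO Otx2KD (-0.01, not called) turned to 0.0456 with quantile normalization, 0.0071 with median-of-ratios scaling, 0.0054 with chromosome medians removed, 0.0071 without Sirt1KO Otx2KD replicate 3 and 0.0333 without EpiLC replicate 3, and over all libraries left out it ran from -0.0383 to 0.0333. In EpiLC against Sirt1KO, Lama5 (0.15, adjusted p = 0.0128) was not called without EpiLC replicate 1 (0.12), and Hspg2 (0.21, adjusted p = 0.015) was not called without EpiLC replicate 2, Sirt1KO replicate 2 or Sirt1KO replicate 3 (0.16 to 0.19). With chromosome medians removed, Mmp2 turned from 0.35 to -0.1093 and Pecam1 from -0.48 to 0.0116 in Sirt1KO against ESC. The cause was not tested. The stricter filter gives no value for Lama1. Replicate numbers did not pair the samples (correlations of same-numbered deviations from -0.107 to 0.170). With the replicate block the counts of genes higher and lower were 2 and 6 in EpiLC, 4 and 5 in Sirt1KO, both against ESC, and 9 and 0 from Sirt1KO to Sirt1KO Otx2KD, as without it. Groups of 3 libraries and FPKM without counts limit the precision, most of all for loci near 1 FPKM such as Lama1 in EpiLC.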

Other observations

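The enzymes that build matriglycan, the sugar of dystroglycan that laminin and agrin bind, were measured for 13 genes. In EpiLC against ESC 9 rose and 1 fell, where 74.6% of all tested loci were called, and in Sirt1KO against ESC 6 rose and 1 fell, where 65.0% were called, so the number called was near or below that of all loci. The list medians were 0.32 and 0.16, beside -0.02 and 0.01 over all tested loci. B3gnt1 rose from 4.21 FPKM in ESC to 8.10 in EpiLC (0.80 ± 0.0868, adjusted p = 1.21e-06) and 8.16 in Sirt1KO (0.81 ± 0.0868, adjusted p = 1.81e-06). Gyltl1b, which extends the same sugar, went the other way in Sirt1KO, from 9.28 to 5.62 FPKM (-0.64 ± 0.0769, adjusted p = 5.97e-06), and rose to 15.7 FPKM in Sirt1KO Otx2KD (1.34 ± 0.0769, adjusted p = 5.4e-09). From Sirt1KO to Sirt1KO Otx2KD 2 of the 13 rose and 7 fell (62.6% of all tested loci called), a number that dropped to 3 or 4 without single libraries (Sirt1KO replicate 1 or 2, Sirt1KO Otx2KD replicate 1 or 2) and to 4 with no filter on low values.

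The loci whose pattern was most like that of a basement membrane gene were found by Pearson correlation of log2(FPKM + 1) over the 12 libraries, among 2277 loci with a standard deviation of at least 0.5. Since the 12 points fall into 4 groups, such values mostly follow the group means and are given as a description. Lama1 was followed most closely by Ablim1 (r = 0.996), at 4.63, 0.700, 11.1 and 9.31 FPKM in ESC, EpiLC, Sirt1KO and Sirt1KO Otx2KD, then by AI464131 and Hap1 (both r = 0.994). Lamb1 was followed by the protease Mmp2 (r = 0.985), Tpm2 (r = 0.985) and Hpca (r = 0.972). Lamc1 was followed by Epb4.1l1 (r = 0.980), at 2.02, 1.68, 3.85 and 8.32 FPKM, Parvb (r = 0.975) and Znrf2 (r = 0.973). Sparc was followed by Hspb8 (r = 0.999), at 70.4, 15.6, 44.8 and 59.9 FPKM, Tex264 (r = 0.998) and Fabp3 (r = 0.998).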
